A study of Rattus norvegicus with 8 samples.

Results

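Carrier transcripts for organic cations, carnitine and related solutes were examined in rat kidney as 9 genes: Slc22a2, Slc22a4, Slc22a5, Slc22a7, Slc22a18, Slc22a22, Slc22a24, Slc22a25 and Slc47a1. They are the Slc22 carriers outside urate transport plus the cation extruder Slc47a1, found through the RefSeq accession that the array gives for each probe. Each gene was measured by 1 probe in 1 spot per array, and the 9 genes were tested among 21416 genes or unnamed transcripts. The samples were 4 kidneys labelled with 150 mg/kg of APL for 4 weeks and 4 Control kidneys labelled with 0.5% methylcellulose, a vehicle, for 4 weeks. All came from male SD (Sprague-Dawley) rats 10 weeks old, and 1 single-colour Agilent array was run per sample. APL is read here as allopurinol, a xanthine oxidase inhibitor, because the series title names that drug as the agent that produces renal fibrosis. The title speaks of tubules and the tissue label of kidney. Nothing in the labels says that replicates were separate animals, so p-values measure the spread between these samples, which may be technical.

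Slc22 proteins are membrane carriers of the major facilitator superfamily, and the proximal tubule is the kidney segment best known for them. Organic cations such as creatinine and metformin enter the tubule cell from the blood through Slc22a2 (Oct2) and leave it into the urine through Slc47a1 (Mate1), which exchanges them for protons. Slc22a5 (Octn2) returns filtered carnitine to the body together with sodium, and carnitine in turn carries long-chain fatty acids into mitochondria. Most other members of the family carry organic anions, among them steroid conjugates, prostaglandins and drugs.

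All 9 carriers fell in APL kidneys, from Slc22a22, the most reduced, to Slc22a4, the least. The log2 fold changes, APL over Control, ran from -8.11 to -1.51 with a median of -4.73, and the median of all genes tested was -0.029. Each of the 9 passed at an adjusted p under 0.05 (limma, Benjamini-Hochberg over all genes tested), where 11.5% of all genes tested were called lower and 11.9% higher. For each carrier the 4 APL values lay below the 4 Control values, as they did for 15.9% of all genes, and 29.9% of all genes had groups that did not overlap in either direction. The least reduced, Slc22a4, lost its call in 5 of 14 other settings and in 7 of 8 fits with an array left out. In a sample of whole tissue, fewer cells of a type and less RNA per cell cannot be told apart.

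**Figure D1:**
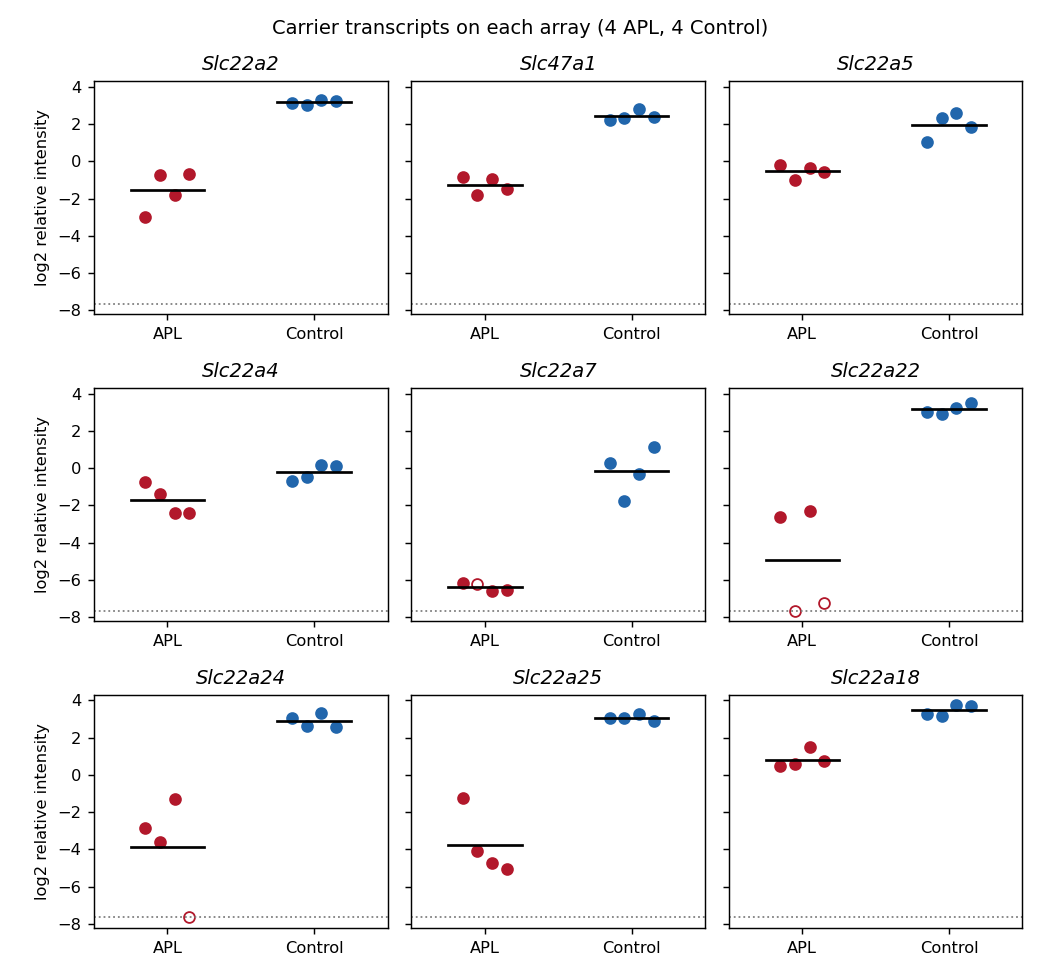
The log2 relative intensity of each carrier on every array, with APL on the left and Control on the right of each panel and the group mean as a black line. Open points were not well above background, the dotted line is the floor, and in every panel the 4 APL points lie below the 4 Control points; heights are not comparable between panels, which show different probes.

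**Figure D2:**
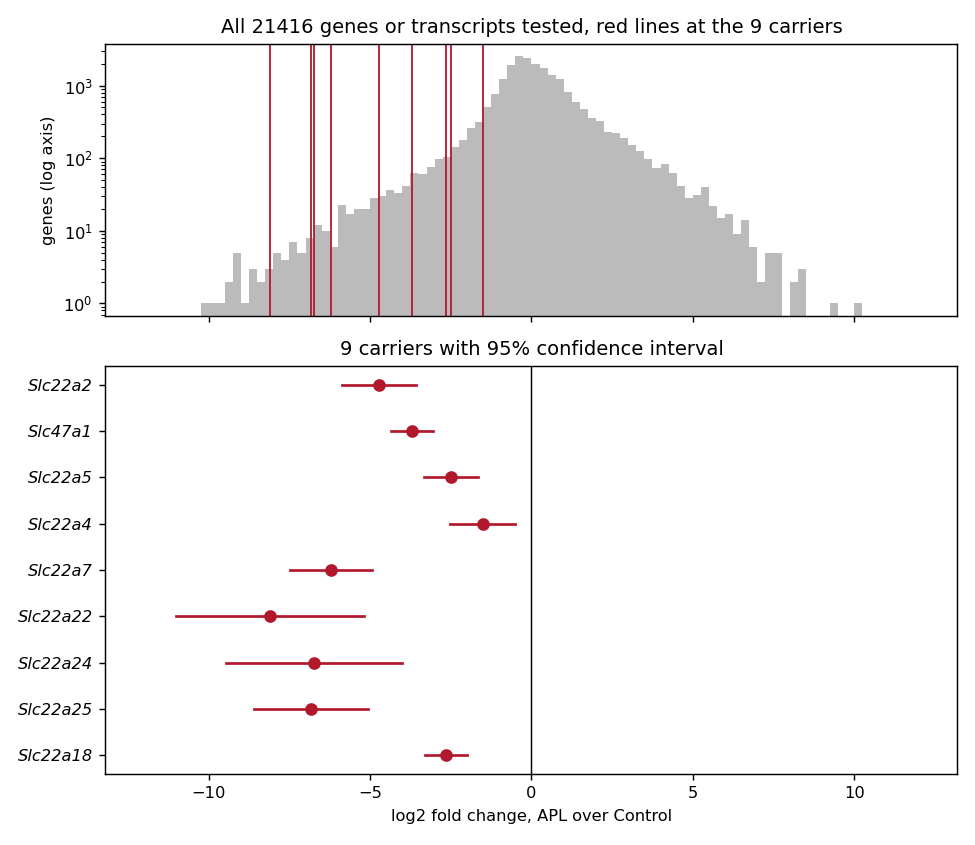
The upper panel shows the log2 fold changes of all 21416 genes or transcripts tested, with a logarithmic count axis and a red line at each carrier. The lower panel gives each carrier's log2 fold change with its 95% confidence interval, and none of the 9 intervals reaches 0.

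Expression is given as relative intensity, the processed signal of the probe divided by the 75th percentile of its array. That percentile was 455 ± 53 on APL arrays and 291 ± 18 on Control arrays (SD, n = 4 each, exact two-sided permutation p = 0.0286, the smallest that 70 splits allow), so the division lowers APL values by 1.56 times on average against Control. Without it the median of all genes moved from -0.029 to 0.60 on the log2 scale, and all 9 carriers were still lower. Probes well above background made up 79.9% to 81.9% on APL arrays and 74.0% to 77.3% on Control arrays, and no carrier was saturated on any array. The arrays came from 2 slides, each with 2 arrays of each group. Within slide 1 the carriers changed by -8.09 to -0.47 and within slide 2 by -8.12 to -2.56 on the log2 scale, all lower on both. The kidney markers Slc34a1, Umod, Slc12a3, Aqp2, Nphs1 and Pecam1 were well above background on all 4 Control arrays.

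Both genes of the organic cation route fell. Slc22a2, the basolateral uptake carrier, had relative intensities of 0.126, 0.591, 0.284 and 0.617 in APL replicates 1 to 4, against 8.74, 8.07, 9.86 and 9.29 in Control replicates 1 to 4. The Control arrays were close together and APL replicate 1 was the lowest. Its log2 fold change was -4.73 ± 0.50 (SE, n = 4 each, limma adjusted p = 0.000475), which is 26.5-fold lower in APL, with a 95% confidence interval of -5.87 to -3.59 on the log2 scale, and it was -3.72 with normexp. Slc47a1, the apical extruder, had 0.550, 0.287, 0.526 and 0.360 in APL replicates, against 4.72, 4.93, 7.13 and 5.13 in Control replicates, with APL values well apart from Control values. It fell by 3.70 ± 0.28 on the log2 scale (SE, n = 4 each, adjusted p = 9.52e-05), or 13.0-fold with an interval of 8.35 to 20.2, and the log2 fold change was -2.89 with normexp and the 75th percentile. The arrays did not rank alike for the 2 genes. APL replicate 1 was the lowest of its group for Slc22a2 and the highest for Slc47a1. Whether uptake changed more than extrusion was tested on the within-array difference of the 2 log2 values, as 1 of 4 pairs. Slc22a2 changed by 1.03 ± 0.75 log2 units more than Slc47a1 in the downward direction (-1.03, SE, n = 4 each), which did not pass (exact permutation p = 0.371, adjusted over 4 pairs 0.495). The interval of differences not refused by this test was -3.01 to 0.57, so a several-fold larger fall of Slc22a2 and an equal fall both remain within it.

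The carnitine family pair had smaller log2 fold changes than the cation pair, a difference that was not tested. Slc22a5, the sodium-coupled carnitine carrier, had relative intensities of 0.859, 0.490, 0.782 and 0.668 in APL replicates 1 to 4, against 2.08, 4.998, 5.94 and 3.56 in Control replicates. The Control arrays varied by 2.86 times and the APL arrays by 1.75 times, and the groups did not overlap. Its log2 fold change was -2.49 ± 0.36 (SE, n = 4 each, adjusted p = 0.0023), 5.62-fold lower in APL (interval 3.14 to 10.0), with a log2 fold change of -1.85 without scaling. Slc22a4 (Octn1), known as a carrier of the antioxidant ergothioneine, had 0.605, 0.381, 0.186 and 0.191 in APL replicates, against 0.612, 0.720, 1.13 and 1.09 in Control replicates. APL replicate 1 all but reached Control replicate 1, its neighbour on slide 1. The change of Slc22a4 was -1.51 ± 0.43 (SE, n = 4 each, adjusted p = 0.0396), which was -0.47 on slide 1 and -2.56 on slide 2. Its call was lost when any array other than APL replicate 1 was left out (adjusted p 0.0504 to 0.101) and in 5 of 14 other settings that use all arrays, where its log2 fold change lay between -1.51 and -0.87. Slc22a4 fell by less than Slc22a5 by 0.98 ± 0.51 log2 units (SE, n = 4 each), a difference that did not pass (exact permutation p = 0.171, adjusted over 4 pairs 0.495, interval -0.36 to 2.43).

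Transcripts of 4 organic anion carriers fell, with log2 fold changes of -8.11 to -6.21 that were smaller under normexp background correction. Slc22a7 (Oat2), a carrier of anions such as prostaglandins and cyclic nucleotides, had relative intensities of 0.0141, 0.0134, 0.0104 and 0.0107 in APL replicates 1 to 4, against 1.22, 0.297, 0.806 and 2.19 in Control replicates. The APL arrays lay close to the limit of detection, with APL replicate 2 not well above background, and the Control arrays spread over 7.37 times. Its log2 fold change was -6.21 ± 0.56 (SE, n = 4 each, adjusted p = 0.000222), but -1.83 (adjusted p = 0.152) and -2.12 (adjusted p = 0.00387) with normexp background correction before 75th percentile and quantile scaling. Slc22a22, known in mouse as the prostaglandin-specific carrier OAT-PG, had 0.165, 0.00291, 0.203 and 0.00673 in APL replicates, against 8.12, 7.57, 9.29 and 11.5 in Control replicates. APL replicates 2 and 4 were not well above background and replicates 1 and 3 were, so the 4 APL arrays fell into 2 low and 2 very low values. The change was -8.11 ± 1.26 (SE, n = 4 each, adjusted p = 0.00313), and its 95% interval ran from 36.8-fold to 2072-fold lower. Values under 0.005 were set to that floor, and with a floor of 0.02 the change was -7.22. With normexp it was -4.46 and -4.60, still called. The difference in change between Slc22a7 and Slc22a22 was 1.90 ± 1.53 log2 units (SE, n = 4 each, exact permutation p = 0.343, adjusted over 4 pairs 0.495, interval -1.89 to 6.08).

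Slc22a24 and Slc22a25 lie in 1 cluster of anion carriers on chromosome 1. Slc22a24 carries the RefSeq synonym Oat5, a carrier of sulfated steroids and of the toxin ochratoxin A in rat. It had relative intensities of 0.136, 0.0813, 0.408 and 0.00507 in APL replicates 1 to 4, against 8.16, 6.20, 9.96 and 5.99 in Control replicates. APL replicate 4 was not well above background, while the other 3 APL arrays were. Its log2 fold change was -6.74 ± 1.18 (SE, n = 4 each, adjusted p = 0.00551). Slc22a25, whose substrates in rat are little known, had 0.418, 0.0600, 0.0375 and 0.0301 in APL replicates, against 8.16, 8.26, 9.47 and 7.55 in Control replicates. All 8 arrays were well above background, and APL replicate 1 stood above the other 3 APL arrays. The change was -6.84 ± 0.77 (SE, n = 4 each, adjusted p = 0.000642). With normexp the log2 fold changes were -4.17 and -4.27 for Slc22a24 and -4.37 and -4.26 for Slc22a25, all still called. The pair differed by 0.092 ± 1.34 log2 units in change (SE, n = 4 each, exact permutation p = 0.971, adjusted over 4 pairs 0.971), with an interval of -2.63 to 3.85 that leaves room for a large difference either way.

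Slc22a18, an imprinted gene of the family whose substrate is not settled, had relative intensities of 1.42, 1.49, 2.79 and 1.65 in APL replicates 1 to 4, against 9.63, 9.08, 13.4 and 12.8 in Control replicates. APL replicate 3 was the highest of its group and still far below every Control array. The log2 fold change was -2.65 ± 0.28 (SE, n = 4 each, adjusted p = 0.000487), or 6.26-fold lower (interval 4.01 to 9.77), with a log2 fold change of -2.01 without scaling.

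Set against the geometric mean of the Control arrays, the APL arrays kept 12.7% to 22.3% of Slc22a5, 12.8% to 25.3% of Slc22a18 and 5.31% to 10.2% of Slc47a1. They kept 1.41% to 6.88% of Slc22a2 and 0.361% to 5.02% of Slc22a25. No single APL array was low for all carriers. APL replicate 1 was the highest of its group for 5 of them, Slc22a4, Slc22a5, Slc22a7, Slc22a25 and Slc47a1, and the lowest for 2, Slc22a2 and Slc22a18. APL replicate 3 was the highest for 3, Slc22a18, Slc22a22 and Slc22a24. The standard deviation of the log2 values of Slc22a22 was 2.88 over APL arrays and 0.264 over Control arrays. For Slc22a24 it was 2.69 over APL arrays and 0.347 over Control arrays. Both APL spreads include arrays not well above background, 2 for Slc22a22, of which 1 was set to the floor, and 1 for Slc22a24. For Slc22a7 the wider spread was in Control, 0.221 in APL and 1.21 in Control.

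**Figure D3:**
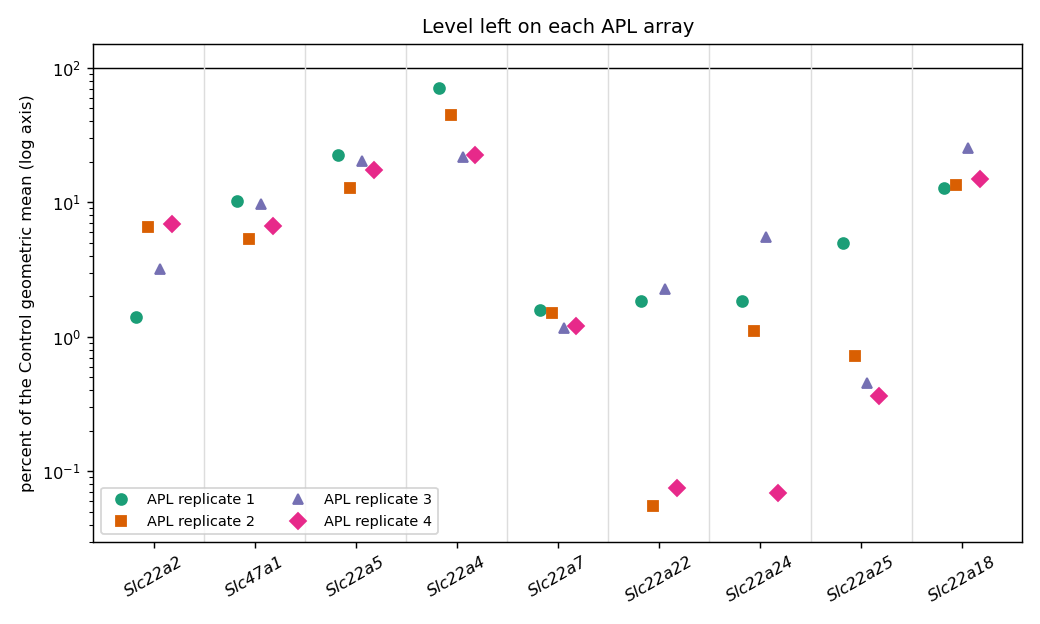
The level of each carrier on each of the 4 APL arrays as a percentage of the geometric mean of the 4 Control arrays, on a logarithmic axis. The order of the APL arrays is not the same for all carriers, and Slc22a22, Slc22a24 and Slc22a25 spread over more than a factor of 10 among APL arrays.

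Promoter sequences were looked up because the measured log2 fold changes of the carriers ranged widely, from -8.11 to -1.51. None of the 4 pairs tested for a difference in change passed. RefSeq promoters of build GRCr8 held 8 of the 9 genes, and the 250 bases before each start were read. The promoter of Slc22a5 held 28 CpG pairs, more than 92.9% of 27457 promoters, and that of Slc22a4 held 22. Slc22a22 and Slc22a25 held 0 and Slc22a24 held 1, against a median of 6 over all promoters. The other values were 3 for Slc22a7, 5 for Slc22a2 and 9 for Slc22a18. The 2 carnitine family genes had the most CpG pairs, and 3 of the 4 anion carriers had at most 1. Whether the CpG count goes with the size of the fall was not tested. The CpG-rich and a CpG-free promoter are shown, both on the minus strand, with each CpG in capitals, Slc22a5 at chr10:38536073-38536322 and Slc22a22 at chr7:90639696-90639945.
Slc22a5: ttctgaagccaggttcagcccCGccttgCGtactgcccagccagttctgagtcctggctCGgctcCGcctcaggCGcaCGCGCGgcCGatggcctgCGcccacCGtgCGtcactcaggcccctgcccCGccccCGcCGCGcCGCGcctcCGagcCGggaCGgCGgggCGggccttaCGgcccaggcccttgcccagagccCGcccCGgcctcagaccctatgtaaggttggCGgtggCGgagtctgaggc
Slc22a22: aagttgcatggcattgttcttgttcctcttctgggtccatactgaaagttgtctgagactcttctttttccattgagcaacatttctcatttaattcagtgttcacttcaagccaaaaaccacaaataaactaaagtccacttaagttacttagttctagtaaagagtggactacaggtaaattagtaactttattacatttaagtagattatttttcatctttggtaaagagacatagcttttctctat

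The promoters of the cluster members Slc22a24 and Slc22a25 resembled each other. Aligned end to end, 145 of 199 aligned bases were identical (72.9%), and the longest shared run was 24 bases. The other 5 pairs of the cluster's promoters shared 62.4% to 88.7%, the highest being UST4r and Ust5r. Among the 39 pairs of these 10 promoters that were not both from the cluster, identity ran from 46.6% to 65.4% and the longest run was 6 to 10 bases. Both sequences are shown, on the minus strand, with the shared run in capitals, Slc22a24 at chr1:214394682-214394931 and Slc22a25 at chr1:214862341-214862590.
Slc22a24: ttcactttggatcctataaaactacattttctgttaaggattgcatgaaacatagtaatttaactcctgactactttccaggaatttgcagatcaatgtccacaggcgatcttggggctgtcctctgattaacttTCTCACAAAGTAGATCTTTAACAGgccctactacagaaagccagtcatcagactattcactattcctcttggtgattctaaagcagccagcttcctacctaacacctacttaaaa
Slc22a25: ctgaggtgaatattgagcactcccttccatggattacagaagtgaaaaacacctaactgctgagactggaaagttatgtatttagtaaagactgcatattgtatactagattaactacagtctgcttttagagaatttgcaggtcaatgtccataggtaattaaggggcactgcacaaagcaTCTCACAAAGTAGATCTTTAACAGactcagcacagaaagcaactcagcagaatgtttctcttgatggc

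The run began 115 bases before the start of Slc22a24 and 68 bases before that of Slc22a25.

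Neighbouring genes, a comparison chosen after their values had been seen, moved in more than 1 way. In the cluster on chromosome 1, Ust5r, next to Slc22a25, fell by 6.44 ± 0.45 on the log2 scale (adjusted p = 6.95e-05), and Slc22a8 on its other side, the organic anion transporter Oat3, fell by 5.09 ± 0.69 (adjusted p = 0.00161). UST4r, next to Slc22a24, was well above background on no APL array and was at least 2.998-fold lower in APL (adjusted p = 0.00196, measured mean log2 values of -7.36 in APL and -5.03 in Control). These carriers are close relatives, and how far their probes share transcripts was not tested. On chromosome 10 the outer flanks of Slc22a4 and Slc22a5 moved the other way. Irf1, an interferon-response transcription factor beside Slc22a5, rose by 3.29 ± 0.43 (adjusted p = 0.00138) and Pdlim4, beside Slc22a4, rose by 3.69 ± 0.35 (adjusted p = 0.000313). Around Slc47a1, also on chromosome 10, Rnf112 rose by 1.41 ± 0.31 (adjusted p = 0.0151). Aldh3a2, on the other side of Slc47a1, did not pass (0.87, adjusted p = 0.125). The nearest tested genes around Slc22a7 (Ttbk1 and Crip3) and around Slc22a22 (Has2 and Zhx2) did not pass, with log2 fold changes between -0.64 and 0.20. All SE here have n = 4 each.

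Lists of related genes placed the carriers among 113 genes, of which 94 were tested, 26 were lower and 11 higher, beside 11.5% lower and 11.9% higher over all genes tested. Organic anion carriers and their partners had 8 of 14 tested members lower and 2 higher, with a median of -3.36. The largest falls were those of Slco4c1 (-7.26 ± 1.24, adjusted p = 0.00478, 2 of 4 APL arrays well above background, and -3.03 with normexp and the 75th percentile), of Slc22a6, the p-aminohippurate carrier Oat1 (-6.51 ± 0.37), and of the urate carrier Slc22a12 (-5.35 ± 0.43). Other carriers of cations and zwitterions had 3 of 12 lower and 1 higher, with a median of -0.24. Slc6a18, an amino acid transporter of the brush border, fell by 3.44 ± 0.23 (adjusted p = 5.61e-05), and the efflux pump Abcb1b rose by 2.95 ± 0.50 (adjusted p = 0.00476). Slc22a3 and Slc47a2, further cation carriers, each had 1 probe and did not pass the detection filter.

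Carnitine genes fell in part. Of 12 tested genes of carnitine synthesis and of the carnitine shuttle, 5 were lower and 1 higher, with a median of -1.07. Tmlhe, the first enzyme of carnitine synthesis, had relative intensities of 1.76, 1.22, 1.21 and 1.80 in APL replicates 1 to 4, against 35.5, 38.1, 32.2 and 33.0 in Control replicates. The groups were tightly separated, and the log2 fold change of Tmlhe was -4.56 ± 0.21 (adjusted p = 1.54e-05). Aldh9a1, a later enzyme of that route, fell by 2.00 ± 0.19 (adjusted p = 0.00031). Crat, which forms acetylcarnitine, fell by 1.77 ± 0.42 (adjusted p = 0.0206), with its call lost without APL replicate 4 or Control replicate 4 and without scaling (adjusted p up to 0.0733). Mlycd, which removes the inhibitor of carnitine palmitoyltransferase, fell by 1.86 ± 0.28 (adjusted p = 0.00278, and 0.407 with normexp and the 75th percentile). Cpt1a, the liver form of carnitine palmitoyltransferase, changed by -1.07 ± 0.32 (adjusted p = 0.0456), with its call lost in 5 of 14 other settings and in 6 of 8 fits with an array left out. Cpt1c rose by 2.08 ± 0.54 (adjusted p = 0.0287), with its call lost in 1 other setting and 5 of those 8 fits. The shuttle carrier Slc25a20 (-0.71, adjusted p = 0.191) and Cpt2 (-0.22, adjusted p = 0.736) did not pass. Bbox1, the last enzyme of carnitine synthesis, had 1 probe, which did not pass the detection filter.

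Creatine supply, a source of the creatinine that Slc22a2 and Slc47a1 move, had 2 of 6 tested genes lower and 1 higher, with a median of 0.45. Gatm and Gamt, the enzymes of creatine synthesis, fell by 2.36 ± 0.48 (adjusted p = 0.0105, and 0.0516 with the replicate number as a block) and by 1.91 ± 0.22 (adjusted p = 0.00077), and Ckb, a creatine kinase, rose by 1.99 ± 0.28 (adjusted p = 0.00181). Scaffolds that hold carriers in the brush border had 3 of 9 lower and 0 higher, with a median of -0.38. Nherf1 fell by 2.03 ± 0.22 (adjusted p = 0.000605) and Pdzk1 by 1.64 ± 0.39 (adjusted p = 0.0196, and 0.0837 without scaling). With the processing reported here, Nherf4 was at least 12.1-fold lower (adjusted p = 0.00114), with no APL array well above background. Its mean log2 values were -7.27 in APL and -3.025 in Control. That bound does not hold under other processing. The log2 fold change of Nherf4 was -2.62 with a floor of 0.02 and -0.69 with normexp and quantile normalization. With normexp and the 75th percentile it was -0.15 (adjusted p = 0.89).

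Transcription factors known to act on transporter genes had 4 of 19 lower and 1 higher, with a median of -0.46. Hnf4a, a nuclear receptor of the proximal tubule, had relative intensities of 1.26, 0.950, 0.537 and 1.03 in APL replicates, against 6.35, 5.68, 4.01 and 3.98 in Control replicates, with no overlap. It fell by 2.44 ± 0.32 on the log2 scale (adjusted p = 0.00126). Bcl6, a repressor, fell by 2.32 ± 0.51 (adjusted p = 0.0153, and 0.0685 with the replicate number as a block). Esr1, the estrogen receptor, fell by 4.91 ± 0.95 (adjusted p = 0.00855, 1 of 4 APL arrays well above background, and 0.457 with normexp and the 75th percentile). Runx1 rose by 5.38 ± 1.26 (adjusted p = 0.0191, 1 of 4 Control arrays well above background, and 0.0525 without APL replicate 4). With normexp and the 75th percentile the change of Runx1 was 1.86. Ppara (-1.103, adjusted p = 0.304) did not pass.

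Prostaglandin genes, listed because Slc22a22 and Slc22a7 carry prostaglandins, had 0 of 13 lower and 5 higher, with a median of 0.96. Ptgs1, a cyclooxygenase, rose by 3.70 ± 0.85 (adjusted p = 0.018, 2 of 4 Control arrays well above background, and 1.31 with normexp and the 75th percentile). Ptgds and Ptgr1 rose by 2.52 ± 0.76 (adjusted p = 0.0473) and by 2.00 ± 0.61 (adjusted p = 0.047), each with its call lost in 3 other settings and in at least 6 of the 8 fits with an array left out. Hpgd, which breaks prostaglandins down, did not pass (0.12, adjusted p = 0.862). The list drawn up for the imprinted cluster around Slc22a18 had 1 of 11 tested genes lower and 1 higher, with a median of 0.33. Whether every gene on that list, such as Rnf167, lies in the cluster was not checked. Phlda2, the gene next to Slc22a18, fell by 1.15 ± 0.29 (adjusted p = 0.0249, 0.241 without scaling, and lost in 4 of the 8 fits with an array left out), Cd81 rose by 1.60 ± 0.21 (adjusted p = 0.00127), and Cdkn1c on the other flank did not pass (3.06 ± 1.104, adjusted p = 0.0824).

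**Figure D4:**
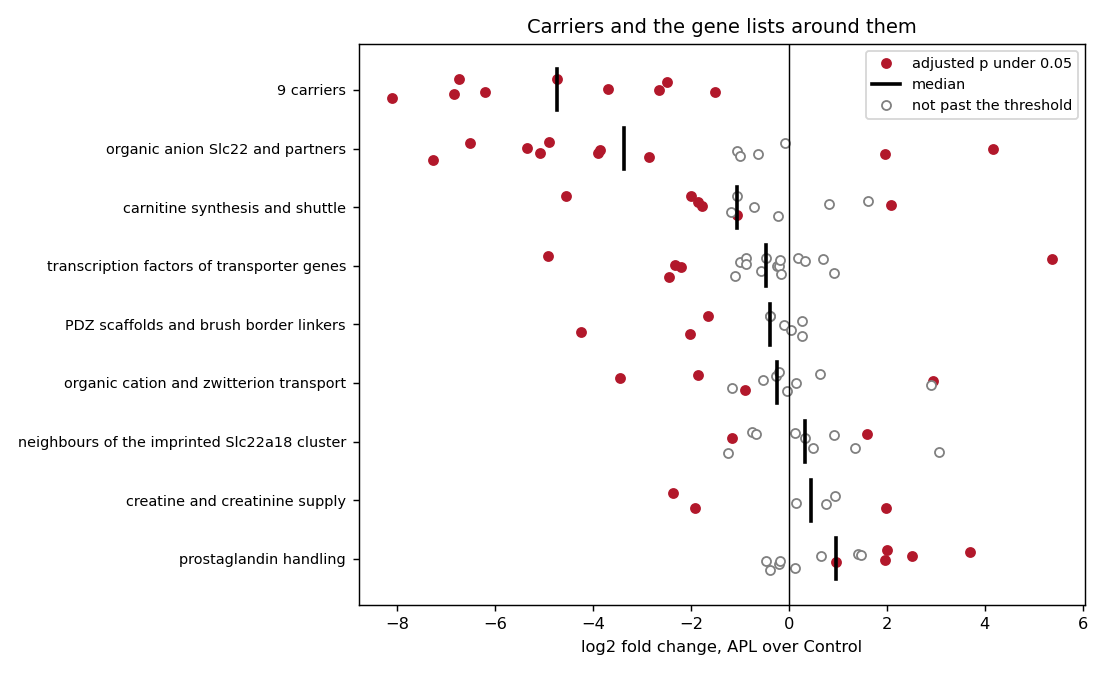
The log2 fold change of each tested gene for the 9 carriers and for 8 lists of related genes, with the list median as a black bar and genes at an adjusted p under 0.05 in red. The carriers lie between -8.11 and -1.51, and the other lists hold genes on both sides of 0.

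Markers of kidney cell types were counted on the same arrays, where 11.5% of all genes tested were lower and 11.9% higher. Among markers of the early proximal tubule, 4 of 9 were lower and 3 higher, with a summed relative intensity of 54.9 to 83.7 over APL arrays and 202 to 259 over Control arrays. Of the straight segment 5 of 9 were lower and 0 higher, with sums of 50.4 to 74.2 in APL and 509 to 574 in Control. All these sums add different probes, so the brightest probes weigh most. The largest parts of the straight segment sums in Control were Acy3 (175 to 210) and Slc7a13 (152 to 176). Slc5a1, Slc2a1, Napsa and Cyp7b1 of that list did not pass. Injured tubule markers had 5 of 7 higher and 0 lower, with sums of 122 to 188 in APL and 1.30 to 3.52 in Control. Macrophage markers had 3 of 6 higher and fibroblast markers 2 of 6 higher, with 0 lower in both. Endothelial markers and markers of the thick ascending limb each had 4 of 6 lower and 0 higher, with sums of 2.00 to 20.0 in APL and 46.2 to 66.5 in Control for the thick limb. Podocyte markers had 1 of 5 lower and 1 higher, collecting duct markers 0 of 8 lower and 1 higher, and distal convoluted tubule markers 0 of 3 in either direction. The part of any of these shifts in the fall of the carriers was not tested. Of the early proximal tubule markers, Slc34a1 (-4.53), Gatm (-2.36), Lrp2 (-2.15) and Pdzk1 (-1.64) fell, and Slc5a12 (4.61, 1 of 4 Control arrays well above background), Slc5a2 (3.04) and Slc2a2 (2.01) rose, as log2 fold changes.

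For each carrier, the genes with the closest pattern were taken by the root mean square difference of the 8 log2 values, each gene centred on its own Control mean. Slc47a1 lay closest to Mat2a (0.238) and Pgc (0.270), Slc22a18 to Pepd (0.177) and Naprt (0.182), and Slc22a5 to Mpc1 (0.308) and Ugt1a6 (0.353). Slc22a2 lay closest to Fmo1 (0.447) and Rida (0.483), Slc22a7 to Cfap68 (0.494) and Cpne4 (0.500), and Slc22a4 to Plau (0.254) and Or5w11 (0.294). The carriers with wide APL spread had no close match. Slc22a25 was nearest to Tmigd1 (0.688) and Gclc (0.726), Slc22a24 to its cluster neighbour Ust5r (1.21) and Cyp4a2 (1.33), and Slc22a22 to Haao (1.05) and Kap (1.38). Among the carriers themselves Slc22a5 and Slc22a18 were the closest pair, with a difference of 0.493 over the 8 arrays.

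**Figure D5:**
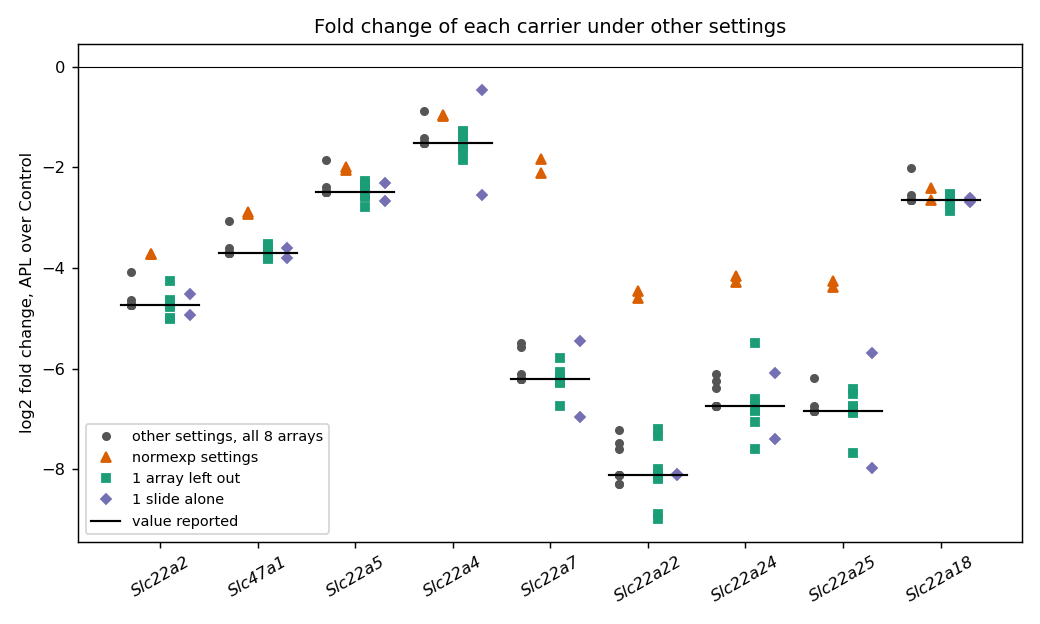
The log2 fold change of each carrier under the other settings, with the reported value as a black bar. Every point lies below 0, the normexp settings give smaller falls for Slc22a7, Slc22a22, Slc22a24 and Slc22a25, and slide 1 alone gives -0.47 for Slc22a4.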

How the data were processed

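The labels' protocols give an RNeasy Mini extraction and Cy3 as the dye. The deposited scanner files hold linear intensity values per spot, read with Agilent Feature Extraction 10.5.1.1 (protocol GE1_105_Dec08, design 028282, build rn4), per the file headers. Its processed signal already had background and spatial trends removed by the authors' software. The authors' deposited table on a log2 scale, with method unstated, matched log2 of the processed signal over the 75th percentile, centred per probe (correlations of 0.9993 to 0.9999 per array). Its column medians were -0.0724, 0.0186, -0.136 and -0.0445 for APL replicates 1 to 4 and 0.0338, 0.0662, 0.0771 and 0.00597 for Control replicates 1 to 4. It was used as an alternative.

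From the processed signal, non-uniform spots were dropped, spots of a probe averaged, values divided by the 75th percentile of 30367 probes, floored at 0.005 and put on log2. A probe was kept if well above background on at least 4 of 8 arrays. Symbols came from a RefSeq table of GRCr8 by accession, naming 18643 probes and leaving 11724 unnamed here. Each gene took its kept probe with the highest mean. The APL and Control arrays were fitted in limma 3.58.1 under R 4.3.3, with eBayes moderation and Benjamini-Hochberg adjustment over all 21416. Errors after ± are moderated SE with n = 4 each unless named otherwise. Those of the 4 pair differences are unmoderated SE, from the variance within each group. Lower bounds use, per array, the higher of the dim probe's value and the lowest signal well above background. They hold for this processing only. The within-array differences of 4 pairs used exact two-sided permutation tests. The number of arrays limits precision. Fits were tested on simulated data. The members and lists were chosen with earlier results of these data known. Named genes are the carriers, up to 3 called genes of largest change per list (all called ones for carnitine and transcription factors), and the 2 nearest patterns; others named were chosen after their values were seen. Some genes under this rule are not reported here.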

Additional observations from a re-analysis of the deposited data

How the results depend on the processing

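The settings were normexp with 75th percentile or quantile scaling, the authors' deposited table, floors of 0.02 and 0.001, other detection filters, no scaling, another percentile base, slide or replicate number as a block, other probe rules, other moderation, and 1 array left out. All 9 carriers stayed lower in every one of them in which they were tested. With all 8 arrays required well above background, Slc22a7, Slc22a22 and Slc22a24 were not tested. Calls were lost for Slc22a4 (-0.96 with normexp and the 75th percentile, -1.51 without a detection filter and with either block, -0.87 without scaling) and for Slc22a7 (-1.83 with normexp and the 75th percentile), and the cause was not tested. Deviations of same-numbered arrays correlated at -0.0157 to 0.0482, and values this small cannot decide whether the numbers pair the samples. With the replicate block the adjusted p of Slc22a4 was 0.117 and 3258 genes were called, against 5026 without it. The block ended no other carrier's call. With normexp and the 75th percentile 2013 genes were called, and with a slide block the adjusted p of Slc22a4 was 0.0527. Of the APL arrays, 3 of 4 correlated best with the Control array of their own number. With an array left out, Slc22a4 ran from -1.85 to -1.28. Slide 1 alone gave -0.47 and slide 2 alone -2.56 for Slc22a4. Without scaling, 83.7% of called genes were higher, against 50.8% with it. The difference between Slc22a24 and Slc22a25 turned its sign to -0.012 with normexp and quantile normalization, and ran from -1.08 to 0.92 with an array left out, never past the threshold. Of the 18 nearest patterns, 11 were shared with a floor of 0.02. Signals near background limit the size of the falls of Slc22a7, Slc22a22 and Slc22a24, and 1 spot per carrier leaves no second probe to check.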
